A study of Mus musculus with 9 samples.

Results

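Of 60158 autosomal ATAC-seq peaks in age-associated B cells, 1047 were most accessible in wild type and 971 were least accessible in wild type, when set against cells with either of 2 altered forms of Tlr9. A peak was taken into the first set when all 3 wild-type (WT) values lay above all 6 values of the Tlr9-deficient (KO) and P915H samples, and into the second when all 3 lay below. These 2018 peaks are candidates for accessibility changes that both mutants share. They were chosen by the measured values of all 9 samples, so their differences from WT are given below as descriptions. The rule gave 1.74% of autosomal peaks as highest in WT and 1.61% as lowest. The same rule applied to KO gave 6201 peaks with KO above the other 6 samples and 8128 below, and applied to P915H it gave 3807 and 5082.

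The cells were sorted by flow cytometry from the spleens of 20-week-old MRL/lpr chimeras, in which marrow donors of 3 genotypes had been mixed. All groups carry the Fas lpr mutation of this lupus-prone strain. KO cells were TLR9-/-, P915H cells were homozygous for P915H, a change in the intracellular domain that is known to impair signalling, and WT cells had intact TLR9, with 3 samples each on build mm10. Hosts are not named in the labels, so a p-value reflects only how these 9 samples vary, and part of that may be technical. A value is the log2 of a signal whose sum is nearly equal in all samples, with 61540 peaks in all, and the read depth behind it is unknown. In such bulk samples a site open in fewer cells and a site less open in every cell cannot be told apart.

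TLR9 is an endosomal receptor of B cells and dendritic cells that binds DNA rich in unmethylated CpG and signals through the adaptor MyD88 to NF-kB, AP-1 and interferon regulatory factors. UNC93B1 carries it to the endosome. Autoreactive B cells can take up DNA through the B cell receptor and deliver it to TLR9, so both pathways meet in the same cell. Age-associated B cells accumulate in lupus and typically carry T-bet and CD11c, and ATAC-seq reads out where their chromatin is open to a transposase.

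The promoter stretches below lie under peaks that the results turn on. Each is the part of the 250 bases before a RefSeq start (GRCm38.p6, the assembly of mm10) that the peak covers, on the strand of the gene. Hlf, Ccne1 and Prdm1 have peaks lowest in WT with the start of a regulator under them, Tgtp2 is an interferon-induced gene with a peak highest in WT, and Srp54b and Srp54c are neighbouring copies that lie in the run with the most peaks lowest in WT. In the first 5 stretches capitals mark matches on either strand to the ETS core CCGGAA, the GC box GGGCGG, the CCAAT box, the cyclic AMP response element TGACGTCA, the AP-1 motif TGANTCA or the interferon-stimulated element (GAAA, any 2 bases, GAAA). In Srp54c, where none of these occurs, capitals mark the 41 bases that also end the Srp54b stretch.
Hlf (chr11:90390918-90391061, - strand): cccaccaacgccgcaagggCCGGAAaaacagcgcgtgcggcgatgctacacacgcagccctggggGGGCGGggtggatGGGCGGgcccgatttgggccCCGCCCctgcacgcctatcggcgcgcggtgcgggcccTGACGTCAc
Ccne1 (chr7:38107491-38107564, - strand): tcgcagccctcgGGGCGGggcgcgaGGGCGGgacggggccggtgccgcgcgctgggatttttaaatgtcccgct
Prdm1 (chr10:44458749-44458931, - strand): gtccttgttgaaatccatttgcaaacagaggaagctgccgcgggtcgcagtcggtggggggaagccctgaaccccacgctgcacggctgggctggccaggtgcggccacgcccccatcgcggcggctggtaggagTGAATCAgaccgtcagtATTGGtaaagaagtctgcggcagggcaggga
Tgtp2 (chr11:49064213-49064296, - strand): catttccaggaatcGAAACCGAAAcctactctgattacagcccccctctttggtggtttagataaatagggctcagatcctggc
Srp54b (chr12:55154941-55155103, + strand): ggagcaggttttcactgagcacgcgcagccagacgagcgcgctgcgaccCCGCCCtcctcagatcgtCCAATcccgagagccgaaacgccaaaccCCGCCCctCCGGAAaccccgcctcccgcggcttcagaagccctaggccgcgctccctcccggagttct
Srp54c (chr12:55230127-55230376, + strand): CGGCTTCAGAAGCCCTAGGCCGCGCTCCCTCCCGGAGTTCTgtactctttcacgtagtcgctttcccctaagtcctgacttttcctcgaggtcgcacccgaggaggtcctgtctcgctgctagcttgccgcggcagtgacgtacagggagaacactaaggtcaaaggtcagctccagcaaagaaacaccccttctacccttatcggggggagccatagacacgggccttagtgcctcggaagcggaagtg
Hlf has 5 matches, of which 3 are GC boxes, and Ccne1 has 2 GC boxes. Prdm1 has an AP-1 match and a CCAAT box on the opposite strand, and Tgtp2 has the interferon-stimulated element alone. The full 300-base windows of Srp54b and Srp54c share an identical run of 91 bases, so reads could be split between the copies and both are uncertain as single genes.

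WT replicate 3 stood apart from the other samples in a way that touches these sets. It placed 38.2% of its summed signal in peaks within 1 kb of a gene start, against 39.4% to 41.9% in the other 8 samples. It was the WT sample farthest from the mutants at 536 of the 971 peaks lowest in WT (55.2%) and at 422 of the 1047 highest in WT (40.3%). Leaving it out widens the rule to 1941 peaks highest and 1735 lowest, and every original member stays by construction. All 6 B cell and all 6 age-associated B cell marker genes checked had a peak in them or within 2 kb. Cr2 and Fcer2a, 2 markers low in age-associated B cells, also had peaks. Their summed signal was 31.4 to 38.8 in WT, 22.1 to 27.4 in KO and 39.7 to 40.8 in P915H. Markers of other cells also had peaks, at 4 of 6 T cell genes (8 peaks, summed signal 122 to 143 over the samples), 3 of 4 macrophage and monocyte genes (5 peaks, 43.2 to 58.6), 2 of 3 natural killer genes (3 peaks, 10.6 to 16.7) and all 4 dendritic genes (25 peaks, 270 to 307). No peak lay at Cd4, Cd8a, Lyz2 or Ncr1, nor at any of 5 neutrophil markers. The part of other cells in the results was not tested. No member belonged to the T cell, natural killer or macrophage lists (48, 18 and 48 peaks). At the shares of all autosomal peaks, 1.74% highest and 1.61% lowest in WT, lists this short would hold few members in any case.

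In the peaks highest in WT, the median difference from WT was -0.30 in KO (interquartile range -0.47 to -0.18) and -0.28 in P915H (-0.42 to -0.17) on the log2 scale. That is 1.23-fold and 1.22-fold lower accessibility. In the peaks lowest in WT it was 0.32 in KO (0.21 to 0.47) and 0.28 in P915H (0.20 to 0.40). The median size of the difference over all autosomal peaks was 0.20 for KO and 0.15 for P915H. A difference of at least 1 was reached in KO at 34 peaks highest and 15 lowest in WT, and in P915H at 19 and 1. Both mutants are measured against the same 3 WT samples, so their differences from WT are not independent of each other.

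**Figure D1:**
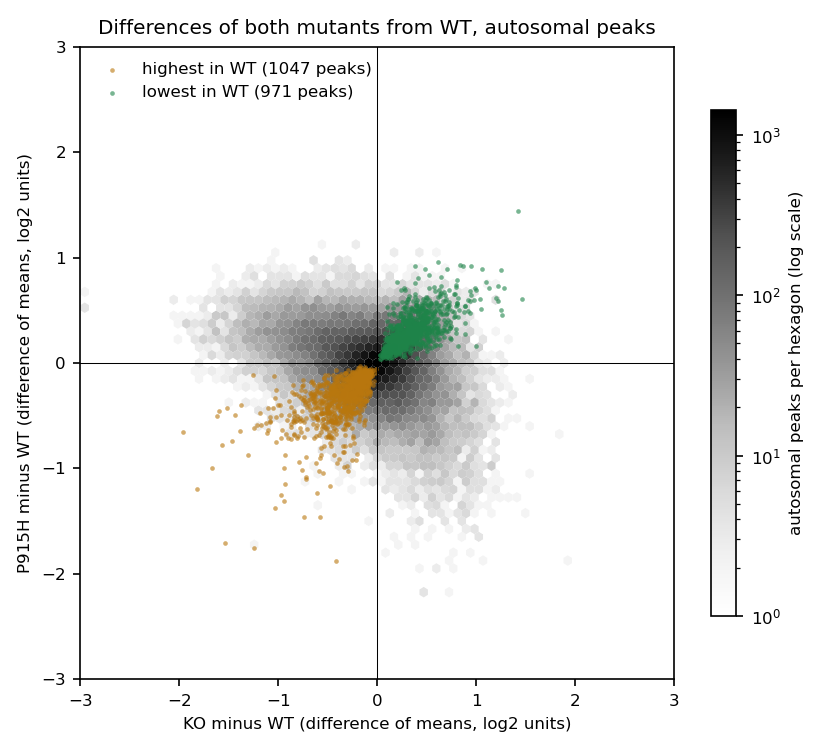
The difference of the KO mean from the WT mean (x axis) and of the P915H mean from the WT mean (y axis), in log2 units, for autosomal peaks. Grey hexagons count all autosomal peaks on a log scale, orange points are the 1047 peaks highest in WT and green points the 971 lowest. The rule itself confines both sets to opposite corners, and most of their points lie within 1 log2 unit of WT.

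The margin by which most members met the rule was small. The gap between the nearest WT value and the nearest mutant value had a median of 0.0511 (interquartile range 0.0214 to 0.109) in peaks highest in WT, and 0.0446 (0.0179 to 0.0943) in those lowest. It was at least 0.25 at 55 and 36 peaks, and the largest gaps were 0.811 and 0.55. Just inside the rule were Noc2l (gap 0.000012) and Rbl2 (0.000177) among the highest, and Ccdc84 (0.000017) and Cers4 (0.000041) among the lowest. Men1 and Nr1d1 lay just outside the first set, and Fam160a1 and Zfp599 just outside the second. The SD between samples of one genotype was smaller in the members than elsewhere (median WT SD 0.0766 and 0.105, against 0.161 over all autosomal peaks), which the rule favours.

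By limma across all 61540 peaks, the mean of both mutants differed from WT at an adjusted p under 0.05 at no peak, or 0% of those tested, while 2849 (4.63%) had an unadjusted p under 0.05. KO differed from WT at 12 peaks (0.0195%), of which 9 were lower in KO (0.0146%). P915H differed from WT at 157 peaks (0.255%), of which 155 were lower in P915H (0.252%). An unadjusted p under 0.05 was found at 18.7% of peaks for KO and 7.72% for P915H. These counts describe all peaks. The rule used the same contrasts, so no test against WT is given for the members.

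Of the 5 genes with at least 3 peaks highest in WT that are described here, Cnih3 had members at every peak assigned to it. The gene encodes an auxiliary subunit of AMPA glutamate receptors, and it had 4 peaks and all 4 were members (chr1:181316720-181339315). At the peak 14687 bp from the gene, WT samples had 3.39, 3.37 and 3.44, KO samples 2.44, 2.56 and 2.43 and P915H samples 2.29, 2.20 and 2.26. The WT samples stood clear of all mutants there, by the gap of 0.811, the largest of all members. KO was 1.90-fold and P915H 2.22-fold below WT. Over the 4 peaks the differences of the mutants from WT ran from -1.20 to -0.37.

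Fabp4, a lipid chaperone gene of fat cells and macrophages, had 3 members, within 963 bp, among its 4 peaks. The middle one had 1.50, 2.01 and 2.00 in WT, 1.39, 0.40 and 0.81 in KO and 0.39, 0.87 and 0.48 in P915H. WT replicate 1 and KO replicate 1 nearly met there. All 7 peaks of Arpc2, a subunit gene of the actin-nucleating Arp2/3 complex, had lower mutant means, and 3 were members with differences of -0.30 to -0.13. Cdh4, a cadherin gene, had 3 members of 7 peaks, and Ankrd11, a chromatin regulator gene, 3 of 22.

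Among the other wide gaps, a peak in Pard3, a cell polarity gene, had 2.76, 2.85 and 3.25 in WT, 1.80, 1.87 and 1.28 in KO and 2.12, 1.97 and 2.15 in P915H. A peak in Tubgcp3, a subunit gene of the gamma-tubulin complex, had 2.17, 2.48 and 2.02 in WT, 1.19, 1.17 and 1.48 in KO and 1.06, 0.77 and 0.91 in P915H. A peak in Dagla, which encodes a lipase that makes an endocannabinoid, had 2.32, 2.29 and 2.31 in WT, 1.66, 1.85 and 1.62 in KO and 1.80, 1.64 and 1.85 in P915H. The WT samples were within 0.03 of each other in Dagla and the groups of mutants overlapped there. Peaks near Klk15, Gm29895 and Olfr76 followed the same pattern with mutant means lower by 0.84, 0.90 and 0.76. The Klk15 peak lies in a run of members with Klk1b1 and Klk1b2-ps, of the same gene family, where reads may be shared.

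B cell genes of the lists were also among the peaks highest in WT. Those named were picked from the lists by the size of their gaps, and the shares of the lists follow below. A peak 330 bp from Jchain, the joining chain gene of secreted IgA and IgM, lay 8418 bp from its start. This peak had 1.96, 1.93 and 2.12 in WT, 1.13, 1.24 and 1.33 in KO and 1.50, 1.42 and 1.14 in P915H. A peak in Cd274, which encodes the inhibitory ligand PD-L1, had 2.97, 2.83 and 2.66 in WT, 2.03, 1.78 and 2.13 in KO and 2.11, 2.50 and 2.32 in P915H. In both genes the KO and P915H samples overlapped each other and lay below every WT sample. A peak in Pik3cd, the catalytic subunit gene of the PI3-kinase that acts downstream of the B cell receptor, was lower by 0.54 in KO and 0.79 in P915H, and a peak in the kinase gene Syk by 0.81 and 0.71.

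A peak 1736 bp from Myc, the growth regulator, had 4.72, 4.75 and 4.86 in WT, 4.59, 4.57 and 4.47 in KO and 4.55, 4.55 and 4.54 in P915H. The mutant samples lay close together there, all below WT. S1pr1, the receptor for exit from lymphoid tissue, had a peak 34265 bp away with differences of -0.32 in KO and -0.45 in P915H. Foxp1 had a peak with -0.35 and -0.27, Sox5 one with -0.65 and -0.34 and Ahnak one with -0.36 and -0.25.

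**Figure D2:**
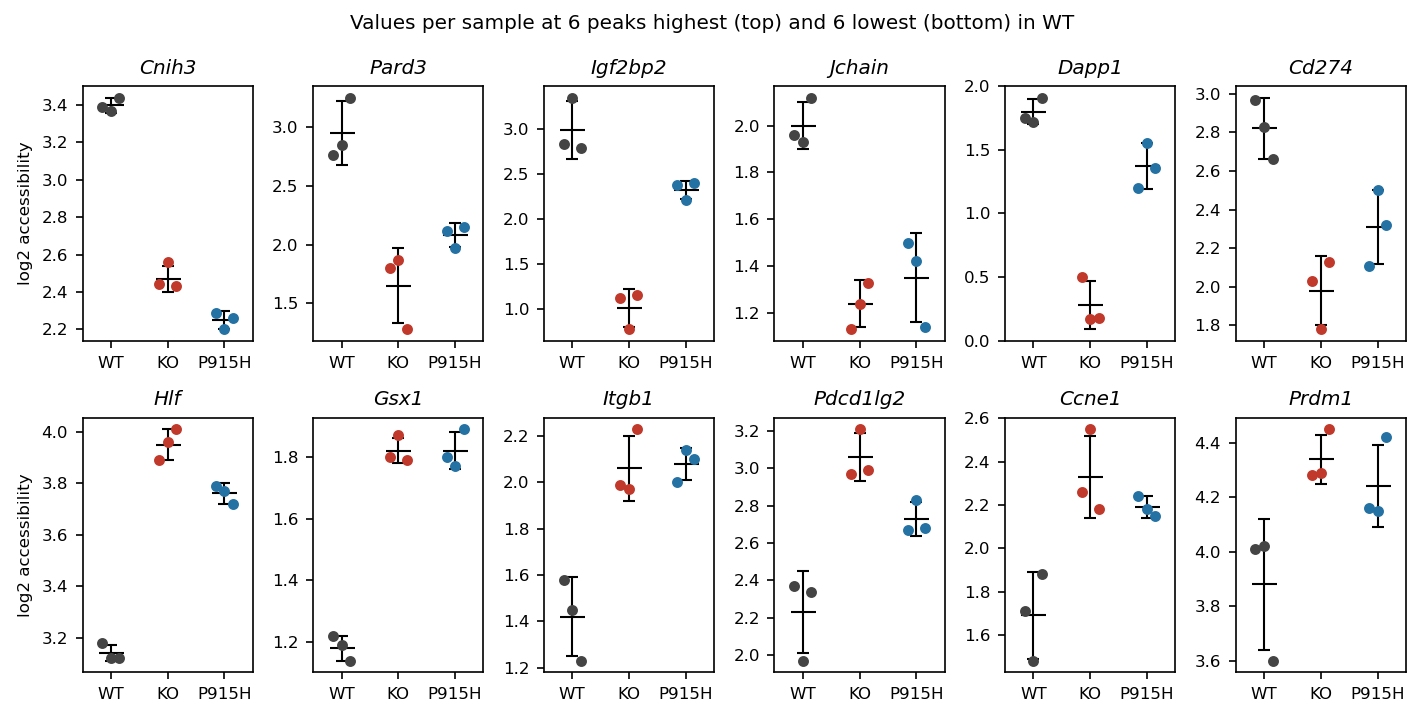
Log2 accessibility (y axis, range set per panel) in each sample at 6 peaks highest in WT (top row) and 6 lowest in WT (bottom row), with WT in grey, KO in red and P915H in blue. Points are samples, long bars the mean and error bars the SD (n = 3). No WT point reaches a mutant point in any panel, as the rule demands, while KO and P915H separate in Igf2bp2 and Dapp1 and overlap in Jchain and Itgb1.

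In the B cell receptor signalling list, which runs from coreceptors through kinases and adaptors to NFAT factors, 15 of 368 peaks (4.08%) were highest in WT and 8 (2.17%) lowest, against 1.74% and 1.61% of all autosomal peaks. The highest were at Cd22, an inhibitory coreceptor, at the kinase genes Lyn, Blk and Syk, at the adaptor and exchange factor genes Dapp1, Pik3ap1, Vav2 and Rasgrp3, and at Pik3cd and Nfatc2. The median difference of the mutants from WT over all 368 peaks was -0.02, and over all autosomal peaks -0.01. With a gap of at least 0.25 no peak of this list remained in either direction. Without WT replicate 3 the shares were 6.52% and 4.89%, against 3.23% and 2.88% of all autosomal peaks.

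Several of these genes held members of both directions. Rasgrp3, which activates Ras in B cells, had a peak at its start with 5.75, 5.72 and 5.79 in WT, 5.66, 5.65 and 5.61 in KO and 5.68, 5.71 and 5.68 in P915H. A peak 3318 bp from that start, inside the gene, went the other way, with 4.55, 4.57 and 4.49 in WT, 4.83, 4.74 and 4.61 in KO and 4.57, 4.65 and 4.85 in P915H. The members of Rasgrp3, Vav2 and Nfatc2 thus do not mark a change of the whole gene in one direction. These peaks were named after their values were seen.

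Of the 159 peaks at Toll-like receptor genes, 6 (3.77%) were highest and 1 (0.629%) lowest in WT, against 1.74% and 1.61% of all autosomal peaks. Without WT replicate 3 the share highest in WT was 3.77%, against 3.23% of all autosomal peaks, and with a gap of at least 0.25 no peak of this list remained. The member nearest Tlr9, which was picked out after its values were seen, lay 3143 bp from the gene (chr9:106230019-106230222). Its WT samples had 3.87, 3.73 and 3.86, its KO samples 3.62, 3.61 and 3.64 and its P915H samples 3.31, 3.47 and 3.30. All KO values lay between those of WT and P915H there, and the limma adjusted p for KO against P915H was 0.22. Neither peak inside Tlr9 was a member. Within 10 Mb of Tlr9 there were 8 members of each direction, 0.764% and 0.824% of them, against 1.02% of all autosomal peaks.

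The other Toll-like receptor members lay at Unc93b1, the trafficking factor, Irak3, a brake on MyD88 signalling, Map3k7, the kinase TAK1, and Pik3ap1, an adaptor that also serves the B cell receptor. At Unc93b1 the samples had 4.58, 4.61 and 4.64 in WT, 4.49, 4.56 and 4.53 in KO and 4.52, 4.41 and 4.42 in P915H, a gap smaller than the spread within any genotype. The member lowest in WT was in Traf3, an inhibitor of alternative NF-kB signalling, with 5.17, 5.20 and 5.05 in WT against 5.28 to 5.54 in the mutants. Traf3, Unc93b1 and Irak3 were named after their values were seen.

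For the other lists, the shares to compare are again 1.74% of all autosomal peaks highest and 1.61% lowest in WT. The follicular and naive B cell list had 8 highest of 281 peaks (2.85%), at Bach2, Cd55, Foxp1 and S1pr1, and 1 lowest (0.356%), near Foxo1. The plasmablast list had 4 highest of 154 (2.6%), at Jchain, Slamf7 and Tent5c, and 1 lowest, at Prdm1. The age-associated B cell list had 4 highest of 195 (2.05%), near the share of all peaks, and 1 lowest (0.513%). Cell cycle genes had 5 of 141 in each direction (3.55%), and the type I interferon list 1 of 150 in each (0.667%). The B cell identity list had 1.21% highest and 0.806% lowest, and the NF-kB list 0.578% and 1.73%. Cytokine and receptor genes had 1.3% and 0.87%, antigen presentation genes 1.13% in each and apoptosis genes 0.592% in each. Germinal centre genes had 1.94% in each, and AP-1 and activation genes 2.09% and 2.51%. These lists were drawn up with results of these data known, and the shares are descriptions.

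Among runs of at least 3 members, the one with the most members was lowest in WT. On chromosome 12, 8 of 9 neighbouring peaks over 106.47 kb (chr12:55124258-55230730) were lowest in WT, at Fam177a, Srp54b, Fam177a2 and Srp54c. SRP54 is the subunit of the signal recognition particle that binds signal peptides. A peak inside Fam177a2 had 2.34, 2.19 and 2.26 in WT, 3.09, 2.96 and 2.69 in KO and 2.74, 3.02 and 3.21 in P915H. The Srp54c peak that covers the stretch printed above had 6.23, 6.32 and 6.26 in WT, 6.45, 6.47 and 6.45 in KO and 6.55, 6.45 and 6.53 in P915H.

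In both, WT lay below every mutant sample and the mutants overlapped. The median difference of the mutants from WT over the 9 peaks was 0.30 and the range 0.20 to 0.69. No peak of the run differed between KO and P915H by limma (adjusted p from 0.473 to 0.945). Fam177a with Fam177a2, and Srp54b with Srp54c, are near-copies, so the 8 members may not be 8 separate observations. Their part in the result was not tested.

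**Figure D3:**
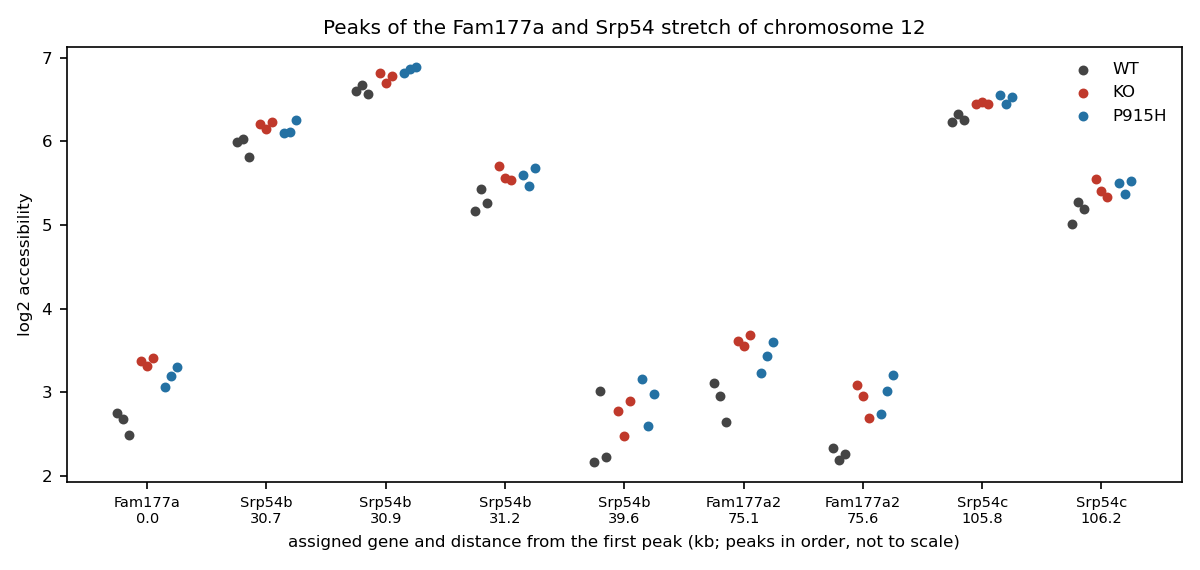
Log2 accessibility (y axis) of each sample at the 9 peaks of the Fam177a and Srp54 run on chromosome 12, in order along the chromosome (x axis, assigned gene and distance from the first peak in kb, not to scale). WT is grey, KO red and P915H blue. The WT points lie below all mutant points at 8 peaks, and at the fifth, in Srp54b, WT replicate 2 at 3.02 lies among the mutants.

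Hlf, the gene of a circadian PAR-type transcription factor, had 4 peaks over 32.42 kb and all 4 were lowest in WT. The peak at its start, whose promoter stretch holds 3 GC boxes, had 3.18, 3.12 and 3.12 in WT, 3.89, 3.96 and 4.01 in KO and 3.79, 3.77 and 3.72 in P915H. KO was 1.76-fold and P915H 1.54-fold above WT. WT samples lay within 0.06 of each other there and every KO value was above every P915H value, although the limma adjusted p for KO against P915H was 0.361. A peak 26907 bp from Hlf had 2.07, 1.92 and 1.68 in WT, 2.76, 2.84 and 2.94 in KO and 2.45, 2.52 and 2.66 in P915H. Cfap99, a cilium gene, had 3 members of 4 peaks with differences of 0.50 to 0.78. Those 34 and 1518 bp from the start of Zfyve28 each overlap 2 genes, so they are uncertain as peaks of Cfap99 alone.

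Of the other wide gaps in this direction, a peak 36503 bp from the homeobox gene Gsx1 had 1.22, 1.19 and 1.14 in WT, 1.80, 1.87 and 1.79 in KO and 1.80, 1.77 and 1.89 in P915H, with KO and P915H means 0.00 apart. A peak in Elovl5, a fatty acid elongase gene, had 1.69, 1.46 and 1.83 in WT, 2.55, 2.77 and 2.17 in KO and 2.50, 2.51 and 2.74 in P915H. A peak 79667 bp from Itgb1, the integrin beta 1 gene, had 1.58, 1.45 and 1.23 in WT, 1.99, 1.97 and 2.23 in KO and 2.00, 2.14 and 2.10 in P915H. At all 3 peaks the KO and P915H samples overlapped. Peaks in Asap2 and Zfand3 and near Myl7 and Gm22798 had differences of 0.64 to 0.76, and one near Trp53rka, which has a near-copy, 0.85.

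B cell and immune regulators were among the peaks lowest in WT, and those named were picked from the lists by the size of their gaps. A peak 10834 bp from Pdcd1lg2, which encodes the inhibitory ligand PD-L2, had 2.37, 1.97 and 2.34 in WT, 2.97, 3.21 and 2.99 in KO and 2.67, 2.83 and 2.68 in P915H. Cd274 lies beside Pdcd1lg2 on chromosome 19, and its member above went the other way. A peak 367 bp from Fas, the death receptor gene that carries the lpr mutation in all samples, had 2.64, 2.45 and 2.53 in WT, 3.02, 3.08 and 3.02 in KO and 2.85, 2.98 and 2.96 in P915H. KO samples were the highest of the 9 at both peaks, although the limma adjusted p for KO against P915H was 0.275 and 0.716.

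The peak at the start of Ccne1, which encodes cyclin E1 of the entry into S phase, had 1.71, 1.48 and 1.88 in WT, 2.26, 2.55 and 2.18 in KO and 2.24, 2.18 and 2.15 in P915H. At the start of Prdm1, which encodes the plasma cell regulator Blimp-1, WT had 4.01, 4.02 and 3.60, KO 4.28, 4.29 and 4.45 and P915H 4.16, 4.15 and 4.42. At the start of Atf3, an AP-1 family stress response gene, WT had 4.07, 4.09 and 3.67, KO 4.21, 4.25 and 4.55 and P915H 4.28, 4.22 and 4.34. WT replicate 3 was far below the other WT samples at Prdm1 and Atf3 but not at Ccne1. At Prdm1 and Atf3 the WT sample nearest to the mutants was replicate 2, and at Ccne1 it was replicate 3.

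Peaks with smaller gaps lay within Plcg2, the phospholipase downstream of the B cell receptor (0.36 above WT on average), Spib, an ETS factor of B cells (0.40), and Usp18, a brake on interferon signalling (0.31). Runx3 had one 47650 bp away (0.72), the NF-kB inhibitor gene Tnfaip3 one 84180 bp away (0.38) and Foxo1 one 41073 bp away (0.30). At the Foxo1 peak KO samples had 1.65, 1.66 and 1.65 and P915H samples 1.98, 2.00 and 2.02, with WT at 1.55, 1.53 and 1.51. The values of the 2 mutants did not overlap there, although the limma adjusted p for KO against P915H was 0.323.

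The share of peaks at gene starts was larger among those lowest in WT, a description with no test. Leaving out chromosome 18, 377 of 937 (40.2%) were within 1 kb of a RefSeq start, against 26.8% of all autosomal peaks and 249 of 1022 (24.4%) of those highest in WT. Some genes of other chromosomes, such as Myc, Blk and Fabp4, also had no start placed, so these shares miss peaks at their starts. Peaks in gene bodies away from starts made up 42.8% of the lowest, 49.1% of the highest and 50% of all, and those outside genes within 100 kb 17%, 26.2% and 22.8%. When peaks were split into 4 equal parts by mean level, in the part with the highest level 68.7% of the lowest were at starts, against 46.2% of the highest and 46.3% of all.

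This share moved with WT replicate 3. When that sample was left out, 506 of 1685 peaks lowest in WT (30%) were at starts, close to the 26.8% of all peaks. The median deviation of WT replicate 3 from the mean of a peak was -0.103 at starts, against -0.055 to 0.078 in the other samples. With a gap of at least 0.25, 8 of 35 (22.9%) were at starts, and 3 of 53 (5.66%) of the highest. The part of replicate 3 in the result was otherwise not tested.

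**Figure D4:**
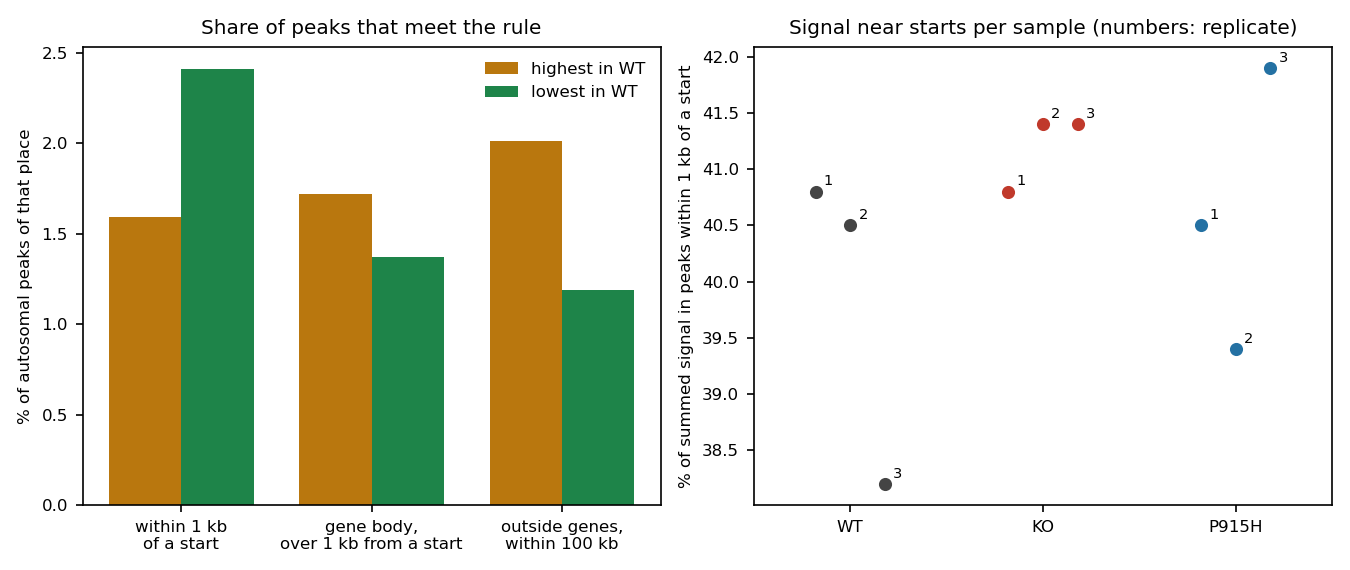
Left, the share of autosomal peaks (y axis, %) of each place that were highest (orange) or lowest (green) in WT: 2.41% of peaks within 1 kb of a start were lowest in WT against 1.37% in gene bodies and 1.19% outside. Right, the share of summed signal in peaks within 1 kb of a start (y axis, %, axis not from 0) for each sample, where WT replicate 3 is the lowest at 38.2%.

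The median GC content of promoter windows under peaks lowest in WT was 65.3% over 301 windows of 300 bases, against 56% over 188 windows under peaks highest in WT and 61.7% over 11347 windows under any autosomal peak. The 301 and 188 windows lay under 243 and 149 members, so some members hold several windows and the windows are not separate observations. The GC box GGGCGG, in either strand, was in 72.8% of the lowest, 44.1% of the highest, 66.2% of those under any peak and 36% of all 31365 windows. The interferon-stimulated element was in 1.66% of the lowest, 6.38% (12 windows) of the highest, 3.13% under any peak and 3.45% of all. CCGGAA was in 28.2%, 29.8%, 30.8% and 15.1% in the same order, and TGANTCA in 5.65%, 5.32%, 4.39% and 7.85%. Without WT replicate 3 the GC box share was 66.5% for the lowest and 52.6% for the highest, and that of the interferon-stimulated element 2.69% and 5.71%. The CCAAT box share was then 48.4% for the lowest and 40.6% for the highest.

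The Tgtp2 peak with the interferon-stimulated element printed above had 2.96, 3.09 and 3.39 in WT, 2.70, 2.68 and 2.47 in KO and 2.67, 2.56 and 2.47 in P915H. Tgtp2 encodes an interferon-induced GTPase and has a close copy, Tgtp1, so its reads may be shared. The longest identical run of the promoter windows of Tgtp1 and Tgtp2 was 27 of 300 bases. At the start of Zfp827, a zinc finger gene, WT had 1.58, 2.15 and 1.76, KO 0.70, 0.86 and 1.09 and P915H 1.27, 0.53 and 0.69. The starts of Zfp512b and Tmem222 were lower in the mutants by 0.47 and 0.42, and a peak that overlaps 2 genes, assigned to Thpo and 357 bp from the start of Chrd, by 0.65. In the other direction the starts of Rps6kb1, which encodes the S6 kinase, and Senp6, a SUMO protease gene, were higher by 0.46 and 0.65.

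KO and P915H were compared with each other at the same peaks, a contrast the rule did not set out from but does bound, since both must lie on one side of WT. By limma, 9548 of 61540 peaks (15.5%) differed between them, 6.55% higher and 8.97% lower in KO. Among the peaks highest in WT 19 did (1.81%), 4 higher and 15 lower in KO, and among those lowest in WT 3 did (0.309%), all higher in KO. The median size of the difference was 0.10 and 0.09 on the log2 scale, against 0.23 over all autosomal peaks, with a median SE of 0.17 and 0.16. A difference that did not pass does not show that the mutants were alike at a peak, and the low shares cannot be told apart from what the rule brings about.

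**Figure D5:**
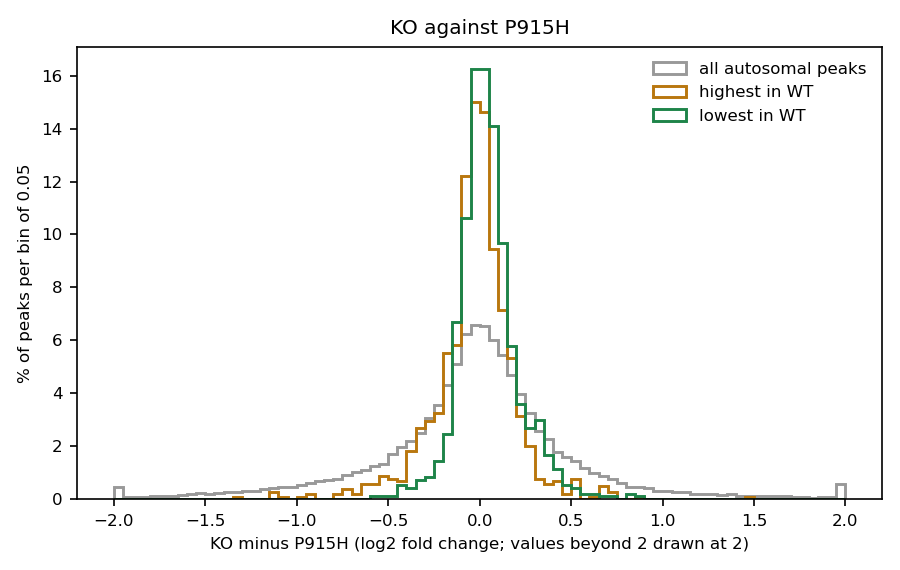
Distribution of the KO minus P915H difference (x axis, log2 fold change) as the share of peaks per bin of 0.05 (y axis, %), for all autosomal peaks (grey), those highest in WT (orange) and those lowest in WT (green). Both sets are narrower than all peaks, with a median size of 0.10 and 0.09 against 0.23.

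At most of these 22 peaks the KO was the more distant mutant. Igf2bp2, an RNA-binding protein gene, had a peak with 2.83, 3.35 and 2.79 in WT, 1.13, 0.78 and 1.16 in KO and 2.38, 2.21 and 2.40 in P915H. KO fell below P915H by 1.31 there (SE 0.23, limma adjusted p = 0.006), in all samples. A peak in Dapp1, an adaptor gene of B cell receptor and PI3-kinase signalling, had 1.75, 1.72 and 1.91 in WT, 0.50, 0.17 and 0.18 in KO and 1.20, 1.55 and 1.36 in P915H, and KO was lower than P915H by 1.09 (SE 0.29, limma adjusted p = 0.0299).

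A peak in Myo7a, a myosin gene, had the smallest adjusted p of the members (0.0054 by limma), with 2.47, 2.40 and 2.42 in WT, 1.13, 1.28 and 1.12 in KO and 2.33, 2.24 and 2.39 in P915H. P915H was close to WT there and the peak met the rule by a narrow margin. Others lower in KO than in P915H by this test lay at Cd79a, a signalling chain of the B cell receptor (by 0.46), Slamf7 (0.35), Runx1 (0.64), Pik3cg (0.59), Sh3bp4 (0.98), near Cdk15 (1.12) and Ptgs2 (1.14), at Igk (0.71) and near LOC115490388 (0.92). These and Myo7a were named after their values were seen.

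On chromosome 17, 3 more were at Gm29719, LOC115488814 and Sytl3, in a region of near-copies of Dynlt1. At Sytl3 WT had 4.19, 4.40 and 4.52, KO 3.25, 3.12 and 3.02 and P915H 3.82, 3.74 and 3.71, with KO below P915H by 0.63 (SE 0.14, limma adjusted p = 0.0168). Over the 47 peaks of this region (chr17:6315811-6794759), 9 were lower and 3 higher in KO than in P915H and 4 were highest in WT. Reads may be shared among the copies there.

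P915H was the more distant mutant at 4 peaks. At the start of Zfp345, a zinc finger gene of a large family, WT had 1.67, 1.87 and 1.78, KO 0.98, 1.62 and 1.49 and P915H 0.38, -0.46 and -0.24 (KO minus P915H 1.47, SE 0.35, limma adjusted p = 0.0204). At Pdpn, which encodes the surface glycoprotein podoplanin, WT had 3.96, 3.75 and 3.77, KO 3.26, 3.41 and 2.97 and P915H 2.41, 2.47 and 2.89 (0.63, SE 0.19, limma adjusted p = 0.05). The others were in Asic2 (0.66) and in Il6ra, the interleukin-6 receptor gene (0.67), both named after their values were seen.

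Among the peaks lowest in WT, a peak in Ubxn11 had 2.22, 2.36 and 2.23 in WT, 3.30, 3.19 and 3.30 in KO and 2.44, 2.41 and 2.43 in P915H (KO minus P915H 0.83, SE 0.16, limma adjusted p = 0.00795). At the start of Slc30a3, a zinc transporter gene, WT had 2.30, 2.20 and 2.00, KO 2.87, 2.93 and 3.16 and P915H 2.31, 2.35 and 2.32 (0.66, SE 0.18, limma adjusted p = 0.0332). A peak 19156 bp from Tmsb10, a thymosin gene, was higher in KO by 0.35 (limma adjusted p = 0.0395). At all 3 the P915H samples lay just above WT.

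Over all members, the P915H mean was the nearer to WT at 568 of 1047 peaks highest in WT (54.3%) and at 580 of 971 lowest in WT (59.7%). Members lay on every autosome, at 1.19% (chromosome 14) to 2.47% (chromosome 13) of its peaks for the highest and 1.05% (chromosome 1) to 1.98% (chromosome 18) for the lowest. They were assigned to 960 and 919 genes, and 184 and 163 had another member of the same direction within 50 kb. Their median length was 214 and 215 bp, against 215 bp over all autosomal peaks, and their median level 2.79 and 3.08, against 3.04.

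The largest differences of means were at peaks with a value below 0, where the level is low. Near Cpxm2 WT had 1.64, 1.97 and 2.31, KO 0.77, 0.92 and -0.38 and P915H 0.27, -0.22 and 0.73, and in Kat8 WT had 0.38, -0.37 and 0.96, KO 1.54, 2.16 and 1.55 and P915H 1.91, 2.04 and 1.34. Values below 0 occurred at 6 members highest and 3 lowest in WT. Of the lists of other cell types, 1 member lay near Siglech and none other was highest in WT, while the lowest included peaks at Siglech, Zbtb46, Klf1 and Ltf. At Klf1, an erythroid factor gene, WT had 4.44, 4.40 and 3.78, KO 4.50, 4.53 and 4.74 and P915H 4.48, 4.49 and 4.90, with WT replicate 3 far below the rest. The summed signal of the 2 erythroid marker peaks ran from 17 to 25.1 in WT, 24.6 to 29.7 in KO and 25.6 to 32.2 in P915H, with no peak at Hba-a1 or Hbb-bs. Of these 2 peaks 1 is the Klf1 member itself, so the rule shapes this sum and it is no separate observation. The part of erythroid cells in the peaks lowest in WT was not tested.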

How the data were processed

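ATAC-seq of 9 samples was analysed. Per the submitters' processing notes, the build was mm10 and the authors used MACS2, limma, SAMtools, Bowtie2 2.3.3, Trim Galore 0.6.5 and Picard 2.18.12. The deposited values are log2 signal per peak. Their normalization, and the pooling of samples for peak calling, are not given in the sources used here. Relative to a CPM total, their antilogs sum to between 0.987 and 1.014 per sample, so depth is unknown. At every peak the means of replicate numbers 1, 2 and 3 over the genotypes were equal to within 1.6e-14, so a replicate effect was removed before deposit. The fit (limma 3.58.1, R 4.3.3) therefore has genotype and replicate number, an intensity trend, all 9 samples, no filter and Benjamini-Hochberg adjustment over 61540 peaks, two-sided, with a threshold of 0.05. The SD of a genotype understates the spread.

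On simulated data for KO against P915H (61540 peaks, 200 changed, 5 draws) 5.22% of unchanged peaks had a p under 0.05 and 3.4% of calls were false. Changes of 0.5, 1, 2 and 3 were recovered in 2.8%, 31.6%, 80.4% and 90.0%. Far more peaks were called in the data than were changed there, so the false share and the recovery need not carry over. Peaks were assigned to the gene they overlap or the nearest within 100 kb. Promoters came from RefSeq, with none of chromosome 18 and none for some genes elsewhere, such as Myc, Blk and Fabp4. An assigned gene need not be the one regulated.

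Members and the 20 gene lists were chosen with earlier results of these data known. Peaks named are, per direction, those with the 10 largest gaps, up to 12 of B cell lists and 4 of other cell types, 5 at starts, up to 5 genes with most members (at least 3), 2 just inside and outside the rule, 2 called each way between KO and P915H and 2 with a value below 0. Some that this rule names are not given singly. Other software was matplotlib 3.10.9, NumPy 2.4.6, pandas 2.3.3 and Python 3.11.15. Alternatives covered normalization, a gap, a level filter, the replicate term, sample weights, the samples fitted and each sample left out.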

Additional observations from a re-analysis of the deposited data

How the results depend on the processing

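The counts of peaks highest and lowest in WT were 1100 and 965 with each sample centred on its median (852 and 796 shared with the main sets) and 1199 and 1056 after quantile normalization (863 and 780 shared). A gap of at least 0.25 left 55 and 36. Leaving out a sample gave 1254 to 2458 highest and 1152 to 2248 lowest, since fewer samples must be cleared. The start share of the highest was 21.3% after centring, 27.4% after quantile normalization, 5.66% with the gap and 20.3% to 26.6% with a sample left out. For the lowest it was 43.2% after centring, 35.3% after quantile normalization, 22.9% with the gap and 30% to 44% with a sample left out, with the 30% without WT replicate 3. The start shares under these settings were added after seeing the data.

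For KO against P915H, without the replicate block the calls rose to 17069 over all peaks, 82 among the highest and 35 among the lowest. In simulated data with 200 of 61540 peaks changed, that version gave 49.8% false calls. It also gave a limma p under 0.05 at 11.65% of unchanged peaks. The share of false calls depends on how many peaks change, so 49.8% does not carry over to the 17069. Whether equal numbers pair the samples could not be checked, because removing the replicate effect ties the deviations of same-numbered samples. With only the 6 KO and P915H samples the highest had 8 calls. At a threshold of 0.1 the counts were 40 and 9, and with sample weights 31 and 6. Leaving out a sample gave 3225 to 10991 calls over all peaks (the fewest without P915H replicate 2), 3 to 19 among the highest (3 without KO replicate 2 or P915H replicate 2) and 0 to 5 among the lowest (0 without KO replicate 3). The cause was not tested. At the 93 named peaks 15 of 1023 differences of the mutants from WT moved by more than the spread between replicates. For the members the rule fixes the sign of that difference under every sample left out, so an unchanged sign shows nothing about stability. Of 84 values of KO against P915H at 7 named peaks, 28 no longer passed.

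Depth is unknown, so no counting interval can be given, and 3 samples per genotype limit the precision.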

Other observations

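The same rule on the sex chromosomes gave 25 peaks highest and 17 lowest in WT of 1233 on X, and 1 and 1 of 149 on Y. A peak highest in WT (chr3:88215442-88215762) covers the hairpin of Mir9-1, with 2.65, 2.75 and 2.68 in WT, 2.33, 2.25 and 2.49 in KO and 2.60, 2.58 and 2.41 in P915H. A peak lowest in WT at Mir8105 had 2.56, 2.50 and 2.16 in WT, 2.89, 3.13 and 3.13 in KO and 2.88, 2.71 and 3.04 in P915H.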
